A study of Mus musculus with 10 samples.

Results

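Voltage-gated calcium and sodium channels, the hyperpolarization-activated HCN channels, the sodium leak channel, the TRPC channels and the calcium release channels of internal stores were followed as 45 genes in RNA bound to tagged ribosomes of the mouse hippocampus. Genes were taken by symbol (Cacna1 and Cacna2 genes, Cacnb genes, Scn genes, Hcn genes, Nalcn, Trpc genes, Ryr1 to Ryr3 and Itpr1 to Itpr3) when the mean of their 4 group values was at least 3. Of 52 symbols with such names, 45 passed, among 14986 genes with that mean and 20171 genes in all. The groups were ELS mice exposed to AS, unstressed ELS mice, controls exposed to AS and unstressed controls, all male C57BL/6 mice aged 70 to 90 days. ELS, early life stress, was rearing with little nesting material from postnatal day 2 to 12. AS, acute stress, was a forced swim of 6 min at 25°C with 1 h of recovery. All groups, unstressed controls included, carried the Gprin3 BacTRAP transgene by the methods, which puts a GFP-tagged ribosomal protein under control of Gprin3 sequences, while the sample records call the genotype wild type. Each library pooled hippocampi of 5 to 6 mice. The records list 3 libraries for each ELS group and 2 for each control group, while the extraction protocol states 3 per group, so the number of libraries behind the values of both control groups is in doubt. The table gives 1 value per gene and group, on the log2 scale after the regularized logarithm (rlog), so no value has an SD, no difference has a test, and none can be set against the spread between replicates.

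Voltage-gated calcium (CaV) and sodium (NaV) channels are built around a large pore-forming α subunit, which opens when the membrane depolarizes, and smaller subunits that bring it to the membrane and tune its gating. NaV channels carry the upstroke of the action potential, and CaV channels let in the calcium that triggers transmitter release, dendritic spikes and calcium-dependent transcription. HCN channels open on hyperpolarization and set the resting conductance of pyramidal cell dendrites, NALCN carries a steady sodium leak, TRPC channels pass cations after receptor activation, and ryanodine receptors (RyR) and IP3 receptors (IP3R) release calcium from the endoplasmic reticulum.

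Promoter sequence was looked up in RefSeq (GRCm38.p6), which held an entry for 32 of the 45 genes. The 250 bases before the start of 4 genes are shown for their contrasting values. Nalcn and Ryr2 were lower in every group than in unstressed controls, Hcn2 was nearly even, and Trpc6 differed in opposite directions after AS. Capitals mark CpG dinucleotides. Nalcn lies on the minus strand (chr14:123627145-123627394), Ryr2 on the minus strand (chr13:12106946-12107195), Hcn2 on the plus strand (chr10:79716384-79716633) and Trpc6 on the plus strand (chr9:8543892-8544141).
Nalcn: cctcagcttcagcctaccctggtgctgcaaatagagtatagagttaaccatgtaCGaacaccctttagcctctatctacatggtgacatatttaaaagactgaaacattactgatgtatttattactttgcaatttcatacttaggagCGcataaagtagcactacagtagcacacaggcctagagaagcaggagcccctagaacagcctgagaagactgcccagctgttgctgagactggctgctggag
Ryr2: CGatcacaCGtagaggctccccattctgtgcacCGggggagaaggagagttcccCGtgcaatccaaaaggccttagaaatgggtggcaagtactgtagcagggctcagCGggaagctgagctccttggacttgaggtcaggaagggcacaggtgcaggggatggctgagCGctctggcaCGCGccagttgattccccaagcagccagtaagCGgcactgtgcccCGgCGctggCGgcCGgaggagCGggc
Hcn2: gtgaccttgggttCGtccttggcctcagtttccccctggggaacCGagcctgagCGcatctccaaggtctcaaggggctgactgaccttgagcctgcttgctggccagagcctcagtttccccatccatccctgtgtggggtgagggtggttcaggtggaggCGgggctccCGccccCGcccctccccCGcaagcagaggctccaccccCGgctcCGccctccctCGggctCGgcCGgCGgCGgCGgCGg
Trpc6: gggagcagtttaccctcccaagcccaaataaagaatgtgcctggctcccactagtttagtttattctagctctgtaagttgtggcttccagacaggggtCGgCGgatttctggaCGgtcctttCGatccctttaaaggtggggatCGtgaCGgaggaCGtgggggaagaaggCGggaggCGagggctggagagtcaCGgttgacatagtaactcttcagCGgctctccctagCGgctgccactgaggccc
The Nalcn stretch held 2 CpG and 45.2% G or C, that of Ryr2 held 14 and 63.2%, that of Hcn2 held 16 and 70.4%, and that of Trpc6 held 12 and 56.4%. Short motifs were searched on both strands over 300 bases, 250 before and 50 after the start. The GC box GGGCGG was found at 18 of the 32 channel genes, or 56.3%, against 63.1% of 11559 genes, and its letters occur 3 times in the Hcn2 stretch. The cAMP response element TGACGTCA was found at 0 of 32 against 3.21% of genes, TATAAA at 2 (Cacna1d and Trpc4), or 6.25%, against 7.08%, and GCGTGGGCG, a site for EGR factors, at 1 (Scn7a), against 1.20%. The left part of the RE1 element, TTCAGCACC, was found at 0 of 32 against 0.467% of genes. The EGR site ends with the first 5 letters of the GC box, so a run can hold both, and a match is a description of the sequence alone.

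Most of these channel genes had lower values than in unstressed controls both in unstressed ELS mice and after AS in controls, and differences after AS within ELS mice were small. In unstressed ELS mice 32 of 45 were lower, where 51.5% of all genes were, with a median difference of −0.22 against −0.01 over all genes. After AS in controls 33 of 45 were lower, where 51.7% of all genes were, with a median of −0.13 against −0.01. In ELS mice exposed to AS 33 were lower than in unstressed controls, where 50.9% of all genes were, with a median of −0.13. Against unstressed ELS mice 21 were lower, where 49.2% of all genes were, with a median of 0.00. In pooled samples of RNA from tagged ribosomes such as these, fewer cells of a type and less RNA on tagged ribosomes per cell cannot be told apart.

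Differences beyond 0.25 lay mainly on the lower side of unstressed controls. They were found for 18 genes in unstressed ELS mice, or 40.0%, where 11.9% of all genes were that low, and for 14 after AS in controls, or 31.1%, where 12.3% were. Only Itpr3 was higher by over 0.25 in unstressed ELS mice (11.7% of all genes) and 1 gene was after AS in controls (11.4% of all genes). Within ELS mice, AS went with 1 gene lower by over 0.25, Itpr3 (1.96% of all genes), and 2 higher, Cacna2d2 and Trpc6 (5.11% of all genes). At a size of 0.5 a single gene, Cacna1e, was lower in unstressed ELS mice (1.92% of all genes), after AS in controls (2.08%) and in ELS mice exposed to AS against unstressed controls (1.55%). In ELS mice exposed to AS 14 genes lay over 0.25 below unstressed controls, where 9.47% of all genes did, and only Trpc6 above, where 11.3% did. The comparisons with unstressed controls share that group's values and are not separate evidence.

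**Figure D1:**
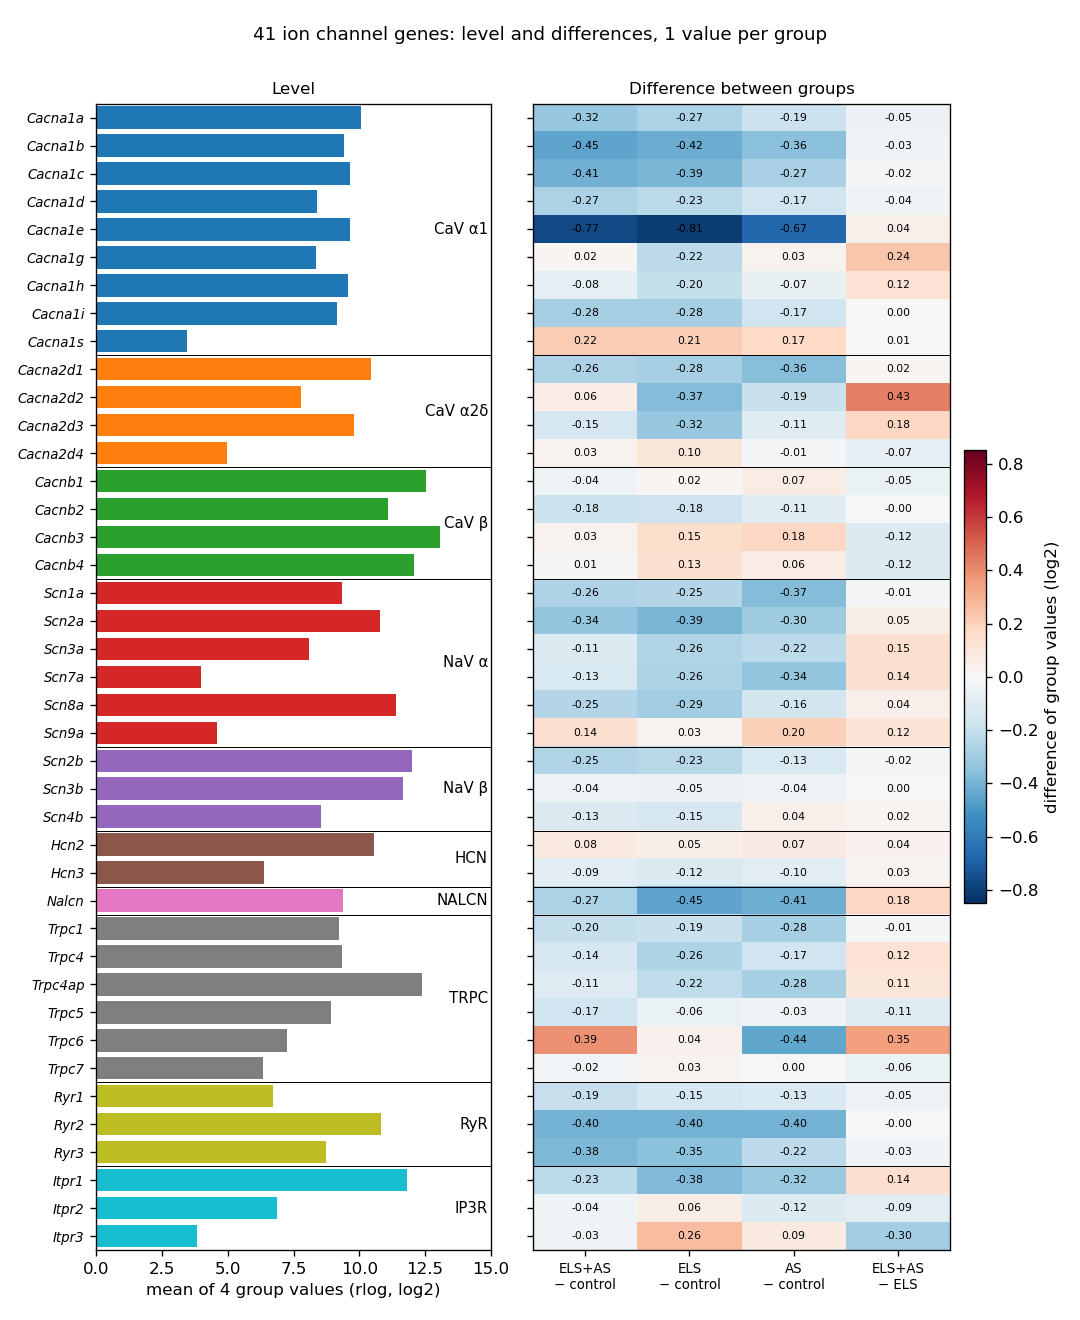
Left, the mean of the 4 group values (rlog, log2 units) of 41 of the 45 genes, colored by family; right, differences between group values (log2) for ELS mice exposed to AS, unstressed ELS mice and controls exposed to AS against unstressed controls, and for ELS mice exposed to AS against unstressed ELS mice. Cacna1e has the lowest values, −0.77, −0.81 and −0.67 against unstressed controls, while Hcn2 and Hcn3 stay near 0.

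Among the pore-forming CaV α1 subunits, 8 of 9 were lower in unstressed ELS mice and 7 of 9 after AS in controls, with medians of −0.27 and −0.17. Cacna1e, the R-type channel (chr1:154390731-154884501, minus strand, mm10), had group values of 9.45 in ELS mice exposed to AS, 9.41 in unstressed ELS mice and 9.55 in controls exposed to AS, against 10.22 in unstressed controls. These correspond to 58.8%, 57.2% and 63.0% of the value in unstressed controls on the linear scale, and the stressed groups lie within 0.14 of each other. Cacna1b, the N-type channel of presynaptic terminals, had 9.27 in ELS mice exposed to AS, 9.30 in unstressed ELS mice and 9.37 in controls exposed to AS, against 9.72 in unstressed controls. For Cacna1c, the main L-type channel of pyramidal neurons, the values were 9.52 in ELS mice exposed to AS, 9.54 in unstressed ELS mice and 9.65 in controls exposed to AS, against 9.92 in unstressed controls. All these high-voltage-activated channels thus had one high group, the unstressed controls, and 3 lower ones close together.

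Cacna1a, the P/Q-type channel that drives fast transmitter release, differed from unstressed controls by −0.27 in unstressed ELS mice and by −0.19 after AS, with 9.96 in ELS mice exposed to AS, 10.01 in unstressed ELS mice, 10.09 in controls exposed to AS and 10.28 in unstressed controls. The T-type channels, which open near rest and support burst firing, were less even. Cacna1i stood at −0.28 in unstressed ELS mice and −0.17 after AS in controls. Cacna1g stood at −0.22 in unstressed ELS mice and 0.03 after AS in controls, and was higher by 0.24 in ELS mice exposed to AS than in unstressed ELS mice. Cacna1h had −0.20, −0.07 and 0.12 for the same comparisons. Cacna1d, the other neuronal L-type channel, had −0.23 in unstressed ELS mice and −0.17 after AS in controls. Cacna1s, the L-type channel of skeletal muscle, was the only α1 gene above unstressed controls in unstressed ELS mice, by 0.21. Its mean of 3.46 was the lowest of the 45 genes, and 1309 of its 6550 exonic bases overlap a gene on the opposite strand, so that reads of both cannot be told apart in libraries that do not mark the strand.

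The extracellular α2δ subunits, which traffic CaV channels to presynaptic terminals, had 3 of 4 genes lower in unstressed ELS mice (median −0.30) and 4 of 4 after AS in controls (median −0.15). Cacna2d1 had 10.42 in ELS mice exposed to AS, 10.40 in unstressed ELS mice and 10.32 in controls exposed to AS, against 10.68 in unstressed controls. Cacna2d3 had 9.81 in ELS mice exposed to AS, 9.64 in unstressed ELS mice and 9.85 in controls exposed to AS, against 9.96 in unstressed controls. Cacna2d2 followed another course, with 7.98 in ELS mice exposed to AS, 7.55 in unstressed ELS mice and 7.72 in controls exposed to AS, against 7.91 in unstressed controls. Its difference after AS within ELS mice, 0.43, was the highest of the 45 genes, and its value there was above that of unstressed controls by 0.06. Cacna2d4, with a mean near 5, stayed within 0.11 over the groups.

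The cytoplasmic CaV β subunits, which bind the α1 subunit and protect it from degradation, did not share the low values of the pores. In unstressed ELS mice 3 of 4 were higher (median 0.07), where 48.5% of all genes were, and likewise after AS in controls (median 0.06), where 48.3% were. Cacnb3, the highest of them per length, had 13.03 in ELS mice exposed to AS, 13.15 in unstressed ELS mice and 13.18 in controls exposed to AS, against 13.00 in unstressed controls. Cacnb4 was higher by 0.13 in unstressed ELS mice and by 0.06 after AS in controls, and Cacnb1 by 0.02 and 0.07. A gene on the opposite strand overlaps 16.0% of the exonic bases of Cacnb4. Cacnb2 was the exception, lower by 0.18 in unstressed ELS mice and by 0.11 after AS in controls. Within ELS mice all 4 were lower after AS, by at most 0.12.

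Of the NaV α subunits, 6 of 7 were lower in unstressed ELS mice (median −0.26) and after AS in controls (median −0.30). Scn8a, the main sodium channel of the axon initial segment and nodes in mature neurons, had 11.31 in ELS mice exposed to AS, 11.27 in unstressed ELS mice and 11.40 in controls exposed to AS, against 11.56 in unstressed controls. Scn2a, found in axons and dendrites of excitatory neurons, had 10.72 in ELS mice exposed to AS, 10.67 in unstressed ELS mice and 10.75 in controls exposed to AS, against 11.06 in unstressed controls. Scn1a, best known from interneurons, had 9.31 in ELS mice exposed to AS, 9.33 in unstressed ELS mice and 9.21 in controls exposed to AS, against 9.57 in unstressed controls. These 3 abundant channels thus lay 0.16 to 0.39 below unstressed controls in each stressed group.

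Scn3a, prominent in the embryonic brain, had 8.12 in ELS mice exposed to AS, 7.97 in unstressed ELS mice and 8.01 in controls exposed to AS, against 8.23 in unstressed controls. Others of the family were near the limit of the mean. Scn7a, which encodes a sodium sensor of glia, stood at −0.26 in unstressed ELS mice and −0.34 after AS in controls. Scn9a, known from sensory neurons, was the exception of the family, higher by 0.03 in unstressed ELS mice and by 0.20 after AS in controls. Scn3a, Scn2a, Scn1a, Scn9a and Scn7a are neighbors on chromosome 2, between positions 65457118 and 66784914 (mm10), so Scn9a went the other way inside a cluster whose remaining genes were lower.

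Of the NaV β subunits, single-pass membrane proteins that modulate gating and act in cell adhesion, 3 of 4 were lower in unstressed ELS mice (median −0.10), and 2 of 4 after AS in controls. Scn2b was lower by 0.23 in unstressed ELS mice and by 0.13 after AS in controls. Scn4b was lower by 0.15 in unstressed ELS mice and higher by 0.04 after AS in controls. Scn3b stayed within 0.05 over the 4 groups.

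The HCN genes described here stayed near unstressed controls. Hcn2, which responds strongly to cAMP, had 10.60 in ELS mice exposed to AS, 10.56 in unstressed ELS mice and 10.58 in controls exposed to AS, against 10.51 in unstressed controls. Hcn3 was lower by 0.12 in unstressed ELS mice and by 0.10 after AS in controls, and 17.1% of its exonic bases overlap Pklr on the opposite strand. Hcn4, the pacemaker channel of the heart, had a mean of 2.12 and was not among the members.

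Nalcn, the leak channel that helps set the resting potential (chr14:123276634-123627144, minus strand), had 9.40 in ELS mice exposed to AS, 9.22 in unstressed ELS mice and 9.26 in controls exposed to AS, against 9.67 in unstressed controls. Its difference was −0.45 in unstressed ELS mice, where only Cacna1e was lower, and −0.41 after AS in controls, where Cacna1e and Trpc6 were lower. In ELS mice exposed to AS the value was 0.18 above that of unstressed ELS mice, and 0.27 below that of unstressed controls.

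The TRPC genes did not move as one. In unstressed ELS mice 4 of 7 were lower (median −0.06), and after AS in controls 5 of 7 (median −0.17). Trpc6, a channel opened by diacylglycerol, had 7.64 in ELS mice exposed to AS, 7.29 in unstressed ELS mice and 6.81 in controls exposed to AS, against 7.25 in unstressed controls. AS thus went with −0.44 in controls and 0.35 in ELS mice. With AS in both groups, ELS mice stood 0.83 above controls. It was the only one of the 45 genes past 0.5 in that comparison, where 1.34% of all genes were as much higher, and with Cacna2d2 (0.25) 1 of 2 past 0.25, where 6.89% were. Trpc1, which forms mixed channels with Trpc4 and Trpc5, had 9.19 in ELS mice exposed to AS, 9.20 in unstressed ELS mice and 9.11 in controls exposed to AS, against 9.39 in unstressed controls. Trpc4, which couples to Gq signaling and is known from lateral septum and hippocampal neurons, had 9.36 in ELS mice exposed to AS, 9.24 in unstressed ELS mice and 9.34 in controls exposed to AS, against 9.51 in unstressed controls. For these partners unstressed controls were highest. Trpc5, close to them in sequence, stood at −0.06 in unstressed ELS mice and −0.03 after AS in controls, and Trpc7 was within 0.06 over the groups. Trpc4ap, taken by its symbol, encodes no channel but an adaptor protein, and stood at −0.22 in unstressed ELS mice and −0.28 after AS in controls.

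Trpc2 fell just short of the mean of 3, with 2.99, and was the nearest gene outside it. It had 3.27 in ELS mice exposed to AS, 3.24 in unstressed ELS mice and 3.28 in controls exposed to AS, against 2.17 in unstressed controls. Xntrpc, a gene model that runs through Trpc2, had the opposite course, with 2.47 in ELS mice exposed to AS, 2.75 in unstressed ELS mice and 2.79 in controls exposed to AS, against 4.09 in unstressed controls. Of the 2874 exonic bases of Trpc2, 2803, or 97.5%, lie in exons of Xntrpc on the same strand, so the assignment of reads between both is uncertain. The other symbols outside the limit were Cacna1f with a mean of 1.74, Hcn4, and Scn4a, Scn11a, Scn10a and the antisense gene Trpc5os, whose means were below 0.

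**Figure D2:**
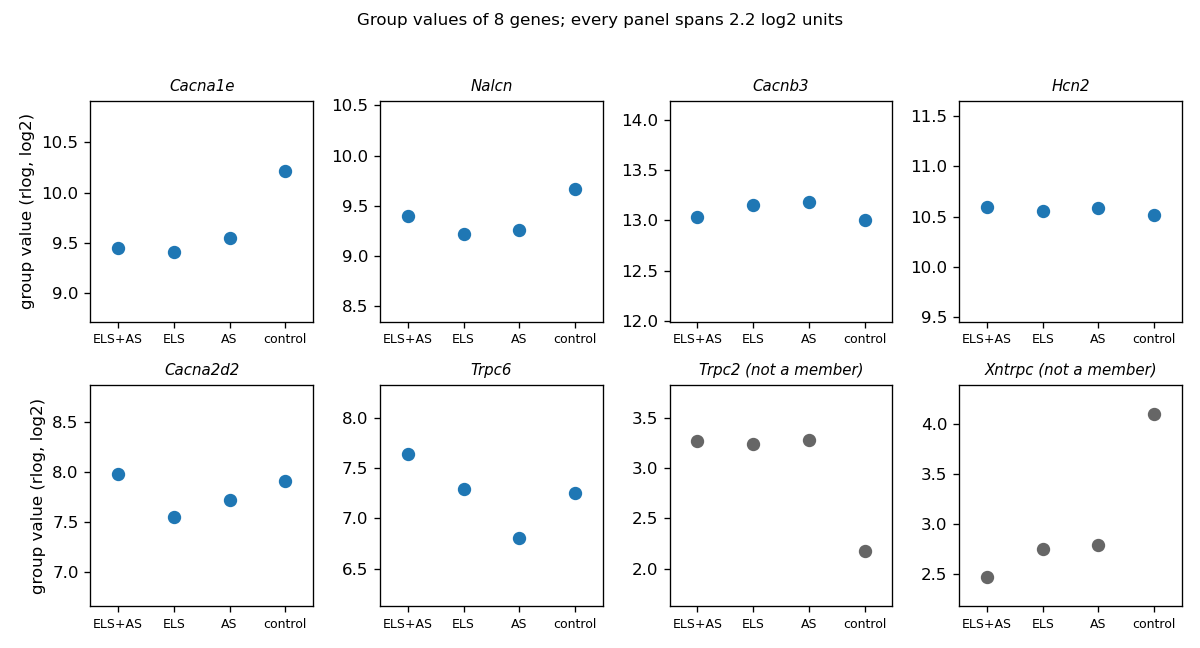
Group values (rlog, log2 units) of 6 of the channel genes and of Trpc2 and Xntrpc, which were outside the set or share its reads; each point is the single value of ELS mice exposed to AS, unstressed ELS mice, controls exposed to AS and unstressed controls, and every panel spans the same number of units. Cacna1e and Nalcn are highest in unstressed controls, Cacnb3 and Hcn2 differ little, and Trpc6 is highest at 7.64 in ELS mice exposed to AS and lowest at 6.81 in controls exposed to AS.

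Among the calcium release channels, the 3 ryanodine receptors were all lower in unstressed ELS mice (median −0.35) and after AS in controls (median −0.22). Ryr2, the main form of brain and heart (chr13:11553102-12106945, minus strand), had 10.75 in ELS mice exposed to AS, 10.75 in unstressed ELS mice and 10.75 in controls exposed to AS, against 11.15 in unstressed controls. Ryr3 had 8.59 in ELS mice exposed to AS, 8.62 in unstressed ELS mice and 8.75 in controls exposed to AS, against 8.97 in unstressed controls, and 4.83% of its exonic bases overlap Aven on the opposite strand. Ryr1, the skeletal muscle form, was lower by 0.15 in unstressed ELS mice and by 0.13 after AS in controls. The family was as low in ELS mice exposed to AS, with a median of −0.38 against unstressed controls.

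The IP3 receptors differed among themselves. Itpr1, the main neuronal form, had 11.82 in ELS mice exposed to AS, 11.67 in unstressed ELS mice and 11.73 in controls exposed to AS, against 12.05 in unstressed controls. Itpr3, a form of secretory and taste cells with a mean under 4, had 3.71 in ELS mice exposed to AS, 4.00 in unstressed ELS mice and 3.82 in controls exposed to AS, against 3.74 in unstressed controls. Itpr1 was thus highest in unstressed controls and Itpr3 in unstressed ELS mice. Itpr2, known from glia, stood at 0.06 in unstressed ELS mice and −0.12 after AS in controls. With 3 genes at such different levels, the family median of 0.06 in unstressed ELS mice rested on Itpr2.

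Set side by side, CaV and NaV pores and β subunits differed in their medians. The 16 CaV and NaV pores had medians of −0.27 in unstressed ELS mice and −0.20 after AS in controls, with 14 and 13 lower. The 8 cytoplasmic CaV β and membrane-spanning NaV β genes had −0.01 and 0.05, with 4 and 3 lower. The α2δ subunits, auxiliary as well, stood with the pores in unstressed ELS mice, at −0.30. With them included, the 12 auxiliary CaV and NaV genes had medians of −0.10 and −0.03, with 7 lower in each comparison. By family, unstressed ELS mice were lowest for Nalcn (−0.45), then for RyR (−0.35), α2δ (−0.30), CaV α1 (−0.27) and NaV α (−0.26), and highest for CaV β (0.07) and IP3R (0.06). After AS in controls the order began with Nalcn (−0.41), NaV α (−0.30) and RyR (−0.22) and ended with CaV β (0.06). As there is no spread between replicates, no family was shown to differ from its neighbors in these orders.

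**Figure D3:**
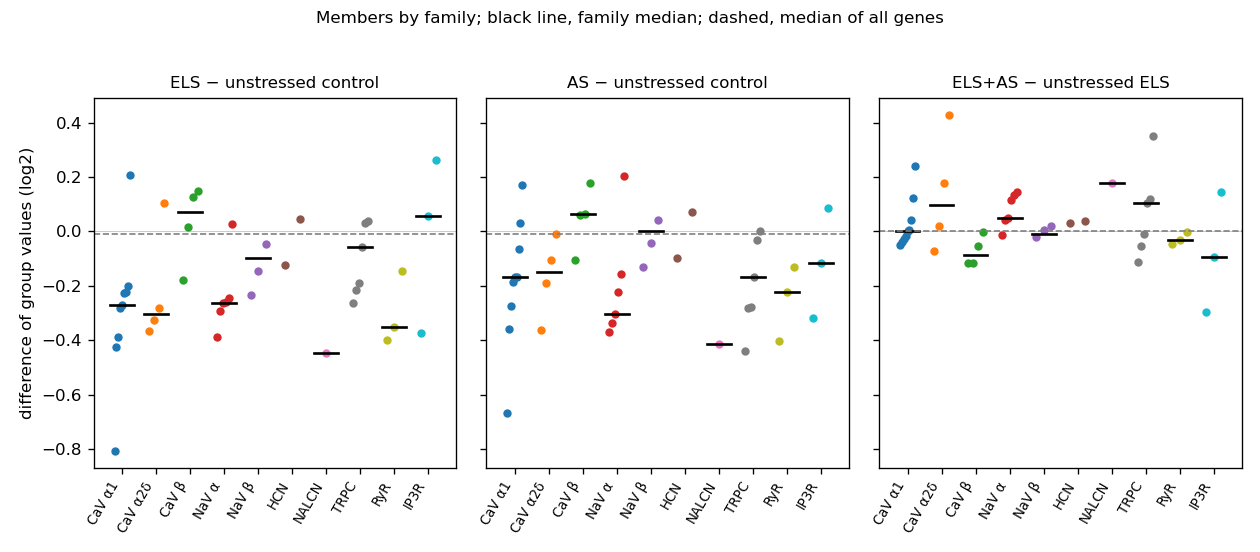
Differences between group values (log2) for the genes of each family, for unstressed ELS mice and controls exposed to AS against unstressed controls and for ELS mice exposed to AS against unstressed ELS mice; each point is 1 of 41 genes, black lines are medians over all genes of a family (none is drawn for HCN) and the dashed line is the median of all genes. CaV α1, NaV α and RyR lie mostly below the dashed line in the first 2 panels, 3 of 4 CaV β genes lie above it, and in the third panel the median of all genes is 0.00.

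The effect of AS was then compared between ELS mice and controls to see how adult stress acted after ELS. The difference of both AS effects had a median of 0.17 over the 45 genes, against 0.02 over all genes, and was over 0.5 for Cacna1e (0.71), Cacna2d2 (0.62), Nalcn (0.59) and Trpc6 (0.79), where 4.65% of all genes were that high. For Cacna1e the AS effect was −0.67 in controls and 0.04 in ELS mice, whose value was already at 9.41 without AS. For Trpc6 the 2 effects had opposite signs, and 1.51% of all genes had opposite effects of over 0.25. The difference of both AS effects was over 0.25 for 18 genes, or 40.0%, where 19.3% of all genes were that high. It contains the AS effect in controls, and all 14 genes lower by over 0.25 there were among these 18. The count is thus not separate evidence from those lower values. On the lower side Itpr3 stood at −0.38 and Cacnb3 at −0.29, 2 of 3 genes past −0.25, where 16.2% of all genes were, and none of the 45 genes was past −0.5, where 3.06% of all genes were. Across the 45 genes the 2 AS effects, which share no group, had a Spearman's rho of −0.28, near the −0.25 over all genes, and genes are not independent replicates.

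**Figure D4:**
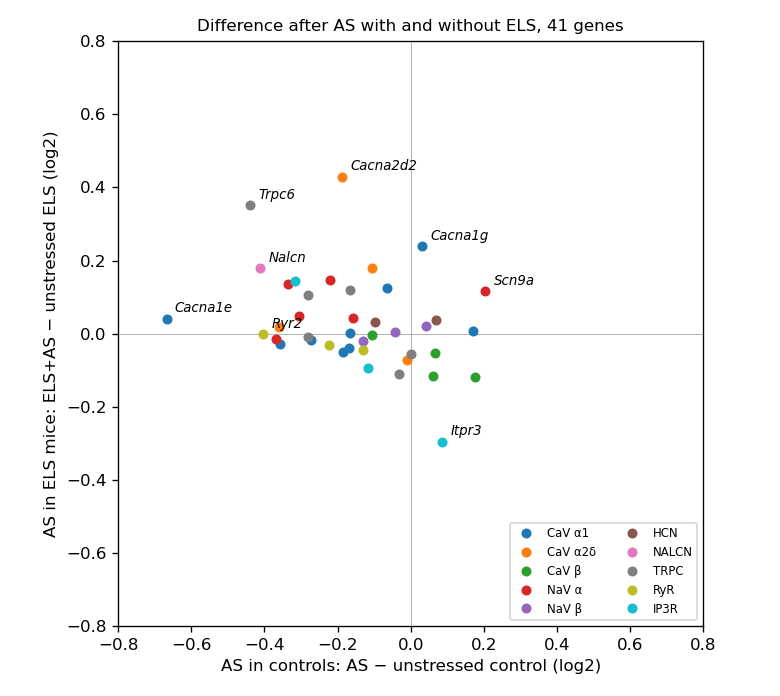
Each point is 1 of 41 genes, colored by family; the horizontal axis is the difference after AS in controls and the vertical axis that after AS in ELS mice, each against unstressed mice of the same rearing, both in log2 units and to the same scale. Trpc6 (−0.44 and 0.35) and Cacna2d2 (−0.19 and 0.43) lie in the upper left, and Cacna1e lies far left at 0.04.

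Channel genes are long, and in these data the differences followed transcript length. The longest transcripts reached 14.9 kb for Cacna1e and 16.8 kb for Ryr2. Across the 45 genes Spearman's rho between transcript length and the difference was −0.48 in unstressed ELS mice and −0.38 after AS in controls, beside −0.44 and −0.39 over all genes, and −0.03 after AS in ELS mice. All points share the same group values. With the median of genes of like transcript length subtracted, in 50 bins, the medians became −0.09 in unstressed ELS mice and −0.05 after AS in controls. Cacna1e then stood at −0.67 in unstressed ELS mice and −0.52 after AS in controls, Nalcn at −0.31 and −0.30, and Ryr2 at −0.26 and −0.26. Of the pores, 14 of 16 were then lower in unstressed ELS mice, their median being −0.14, and the CaV β and NaV β genes had a median of 0.03. The median of IP3R after AS in controls changed sign and became 0.03. Of the 19 genes past 0.25 in unstressed ELS mice 9 stayed past it, of the 15 after AS in controls 5 did, and of the 3 after AS in ELS mice 3 did. Cacna1s and Cacnb4 newly passed it in unstressed ELS mice, and Cacna1s and Scn9a after AS in controls. So adjusted, 8 of 45 genes were lower by over 0.25 and 3 higher in unstressed ELS mice, beside 1247 and 1386 of 14694 genes. After AS in controls 5 were lower and 2 higher, beside 1447 and 1425 of 14694.

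**Figure D5:**
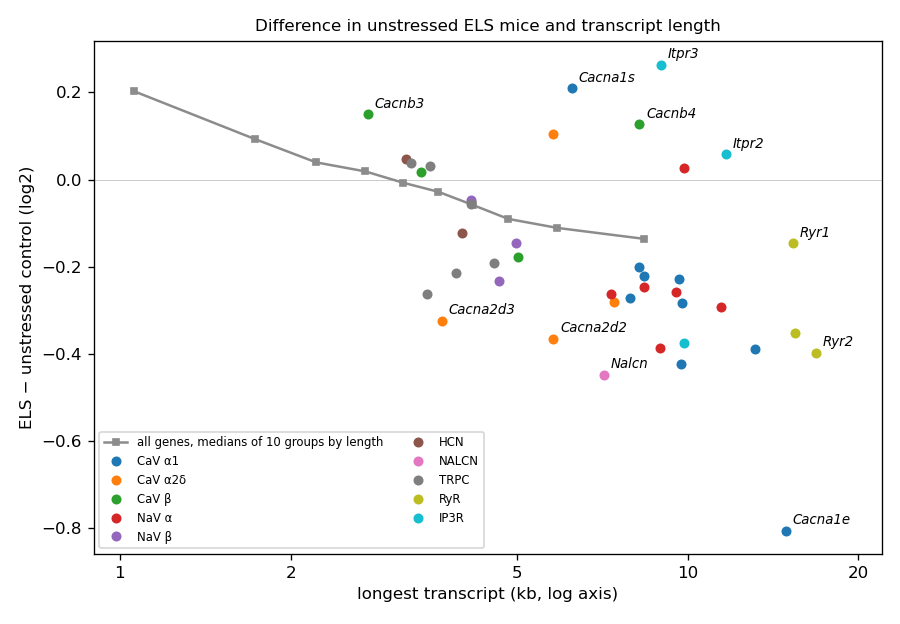
Difference between unstressed ELS mice and unstressed controls (log2) against the length of the longest transcript (kb, log axis) for 41 of the 45 genes, colored by family; grey squares are medians of all genes in 10 equal groups by length. The grey medians go down with length to −0.14, and Cacna1e, Nalcn, Cacna2d2 and Cacna2d3 lie well below them, while Itpr3, Cacna1s and Cacnb4 lie above.

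Levels of different genes were compared per length, as the mean group value less the log2 of the longest transcript in kb. Among the genes named here, the highest were Cacnb3 (11.64), Cacnb1 (10.78), the adaptor gene Trpc4ap (10.41), Scn2b (9.81), Scn3b (9.63) and Cacnb4 (9.06), so small auxiliary subunits led the order. The highest pores were Hcn2 (8.89), Itpr1 (8.51), Scn8a (7.87), Scn2a (7.64) and Trpc4 (7.57). Among the CaV α1 genes Cacna1a led with 7.10, then came Cacna1h (6.52) and Cacna1b (6.13), and Cacna1e had 5.76. Itpr3 (0.65) and Cacna1s (0.81) were at the bottom. The differences between groups were small against this range, as the widest, that of Trpc6, was 0.83.

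Genes that work with these channels, 60 in a list of binding partners, anchors, calcium pumps and store proteins, of which 58 could be used, were centered closer to 0. In unstressed ELS mice 34 of 58 were lower, where 51.5% of all genes were, their median being −0.03. After AS in controls 32 of 58 were, where 51.7% of all genes were, with a median of −0.04. Past 0.25, 8 of 58 were lower and 5 higher in unstressed ELS mice, where 11.9% and 11.7% of all genes were. After AS in controls 12 were lower and 5 higher, where 12.3% and 11.4% of all genes were. Rims1, a scaffold of the active zone that tethers CaV channels, had the lowest values, −0.76 in unstressed ELS mice and −0.66 after AS in controls. Atp2b3, a calcium pump of the plasma membrane, stood at −0.55 and −0.57. Atp2a2, the calcium pump of the endoplasmic reticulum, was lower by 0.42 after AS in controls, and Cacng8, an auxiliary subunit of AMPA receptors, by 0.43 in unstressed ELS mice. Gem, a small GTPase that binds CaV β and inhibits CaV channels, was higher by 0.80 after AS in controls and by 0.75 after AS in ELS mice. Pln, which restrains the pump encoded by Atp2a2, was higher by 0.46 after AS in controls and by 0.28 in unstressed ELS mice. Its mean of 3.12 lay near the limit of 3, against 12.56 for Atp2a2. Fgf11, a binding partner of NaV channels, was higher by 0.38 after AS in controls and by 0.31 in unstressed ELS mice. Jph2, which ties the plasma membrane to internal stores, was higher by 0.37 in unstressed ELS mice. After AS in ELS mice the lowest were Ank3 (−0.32), the anchor of NaV channels at the axon initial segment, Sln (−0.28) and Ank2 (−0.20), and beside Gem the highest were Slc8a3 (0.25), a sodium-calcium exchanger, and Tmem38b (0.23).

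Markers of cell types moved between the groups as well, and their part in the channel values was not tested. Gprin3, the gene whose sequences drive the tag, had 6.73 in ELS mice exposed to AS, 6.70 in unstressed ELS mice and 6.92 in controls exposed to AS, against 7.47 in unstressed controls. Of 7 CA3 markers 6 were lower in unstressed ELS mice (median −0.16) and 6 after AS in controls (−0.22), while 1 was higher in each, by 0.29 and 0.45. The summed CA3 level went the other way, at 14.47 in unstressed ELS mice and 14.53 in controls exposed to AS, against 14.39 in unstressed controls. In both comparisons the sum was higher only through the 1 marker that was higher. It was 14.34 in ELS mice exposed to AS. Of 6 dentate granule markers 5 were lower in unstressed ELS mice (−0.21) and 6 after AS in controls (−0.33), with sums between 12.50 and 12.88. Blood markers, of which 3 of 5 could be used, were higher for 3 of 3 in unstressed ELS mice (0.67) and after AS in controls (0.67), with a summed level of 10.55 in ELS mice exposed to AS, 10.61 in unstressed ELS mice and 10.59 in controls exposed to AS, against 9.80 in unstressed controls. Sums were lowest in unstressed controls as well for markers of oligodendrocyte precursors (11.49 to 11.86 in the stressed groups, against 11.25), of endothelial and mural cells (9.92 to 10.09, against 9.75) and of choroid plexus (11.90 to 12.04, against 11.79). By count, though, 2 of 3 precursor markers (median −0.13) and 2 of 3 choroid plexus markers (−0.27) were lower in unstressed ELS mice. After AS in controls 1 of 3 was lower in each of these 2 lists. The sum of excitatory neuron markers was highest in unstressed controls (16.67 to 16.74 in the stressed groups, against 16.85). Within ELS mice AS went with higher values for 8 of 8 astrocyte markers (0.50), 7 of 7 oligodendrocyte markers (0.46), 7 of 7 interneuron markers (0.32) and 7 of 7 microglial markers (0.31), and with 21 of 45 channel genes lower. CA1 markers were also higher for 5 of 5 (0.29) and dentate granule markers for 5 of 6 (0.19), while 6 of 7 CA3 markers were lower (−0.12). Of the CA1 markers 4 of 5 were lower in unstressed ELS mice (−0.11) and 3 of 5 after AS in controls (−0.08). By list, the median difference of both AS effects ranged between −0.68 for blood and 0.84 for oligodendrocyte markers, with 0.56 for dentate granule markers. Summed astrocyte levels were 15.16 in ELS mice exposed to AS, 14.73 in unstressed ELS mice and 14.75 in controls exposed to AS, against 14.64 in unstressed controls. Summed levels ranged between 15.14 and 15.61 for oligodendrocyte, 13.47 and 13.80 for interneuron and 9.91 and 10.37 for microglial markers. Each sum was highest in ELS mice exposed to AS and lowest in unstressed controls, though interneuron markers stood at 13.47 in controls exposed to AS as well. Single markers did not all follow the sums. Of the oligodendrocyte markers 5 of 7 were lower after AS in controls (median −0.38) and 5 of 7 in unstressed ELS mice (−0.05). Lower astrocyte markers numbered 5 of 8 and 2 of 8, interneuron markers 2 of 7 and 2 of 7, and microglial markers 0 of 7 and 1 of 7. No defining marker was at 0, as Slc17a7 ranged between 14.29 and 14.55, Grik4 between 9.62 and 9.96, Gad1 between 12.38 and 12.81, Aqp4 between 8.42 and 9.06, Mbp between 13.56 and 14.07 and Cx3cr1 between 6.87 and 7.25. Markers of glia and interneurons were thus detected in every group beside those of excitatory neurons.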

How the data were processed

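RNA bound to EGFP-L10a-tagged ribosomes was isolated by TRAP and sequenced from libraries of a kit that does not mark the strand. The labels state a depth between 25 and 35 M reads per library. The authors trimmed reads, aligned them to mm10 with Rsubread, used Salmon and tximport for counts per gene, and deposited 1 log2 (rlog, DESeq2) value per gene and group. The rlog shrinks differences of genes with few reads. Tool versions are not given in the sources used here, nor is how libraries were combined, or whether the limma batch correction of the methods was applied. Depth per library and the spread between replicates are thus unknown.

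Of 20196 rows, 25 symbols turned into dates were left out. Differences of group values were counted past 0.5 and 0.25, without a test, and percentages of all genes refer to 14986 genes whose mean was at least 3. Group values were printed for genes past 0.25 in the ELS comparison or in AS within controls or ELS mice, the highest of each family and those at the limit of the mean. Companion genes were named when among the 3 lowest or highest. Transcript lengths and positions came from GENCODE M21 and were found for 14694 genes. The members and lists were chosen with earlier results of these data known. Alternatives were sizes of 0.25 and 1, other filters on the mean (none, or at least 6), centring, the mean for the median, leaving out Trpc4ap, and removal of trends in mean value, transcript length or genomic span. Results of 4 members are counted in totals and not reported by name here. Scripts were tested on simulated data. Python 3.11.15, numpy 2.4.6, pandas 2.3.3, scipy 1.17.1 and matplotlib 3.10.9 were used.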

Additional observations from a re-analysis of the deposited data

Results flagged for a closer look

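Trpc6 was singled out because AS went with a lower value in controls and a higher value in ELS mice, each by over 0.25. Its value was 7.64 in ELS mice exposed to AS against 7.29 in unstressed ELS mice, and 6.81 in controls exposed to AS against 7.25 in unstressed controls. The AS effects differed by 0.79, and this difference was not tested, as each group has a single value. It was 1 of 45 channel genes with such a pattern, or 2.22%, beside 226 of 14986 genes, or 1.51%.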

How the results depend on the processing

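No paired analysis was possible because the table holds 1 value per group and no library carries its own column, and for the same reason no replicate could be left out. With the size at 0.25, members past it numbered 19 in unstressed ELS mice, 15 after AS in controls, 3 after AS in ELS mice, 2 for ELS among mice exposed to AS, 15 for both stressors and 21 for the difference of the AS effects. With the size at 1 each of these counts was 0. With no filter on the mean, Trpc2 joined Cacna1e and made 2 past 0.5 in unstressed ELS mice, after AS in controls and for both stressors. After subtracting the trend in transcript length, medians were −0.086 in unstressed ELS mice, −0.048 after AS in controls, −0.045 for both stressors and 0.030 for the difference of the AS effects. With the trend in genomic span removed, chosen after seeing the data, they were −0.14, −0.069, −0.064 and 0.084. Centring each group on its median gave −0.022 after AS in ELS mice, −0.055 for ELS among mice exposed to AS and 0.10 for the difference of the AS effects. The mean in place of the median gave 0.030 after AS in ELS mice and 0.0032 for ELS among mice exposed to AS. Medians of small families changed sign. TRPC in unstressed ELS mice became 0.0018 with transcript length and 0.083 with genomic span, and IP3R after AS in controls 0.031 and 0.030. IP3R in unstressed ELS mice became −0.16 with a mean of at least 6, which leaves 2 genes, and −0.018 with the mean in place of the median. IP3R after AS in ELS mice became 0.025 with a mean of at least 6. The cause was not tested. Of the remaining values over all these alternatives, 75 counts and medians of the whole set and 268 values of single genes and families stayed close to those given, 59 of the latter moved, among them medians near 0 that changed sign, and 54 came under 0.25. Precision is limited by the single value per group and by the unknown depth.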
